A study of Homo sapiens with 8 samples.

Results

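The keratin genes were taken as every probe set annotated to a single gene whose symbol is KRT followed by digits and at most 1 letter, which leaves out keratin-associated proteins, pseudogenes and antisense genes. This gave 56 of 54675 probe sets and, with each gene read by its probe set of highest mean over the 8 arrays, 44 of the 19775 named genes. They comprised all 6 simple-epithelial keratins, 14 of 18 keratins of stratified squamous epithelia, 19 keratins of hair and its root sheath, and 5 others. The remaining 11 protein-coding keratins of the RefSeq table had no value from a probe set naming 1 gene and were not analysed here. They are KRT6A, KRT6B, KRT6C, KRT17, KRT26, KRT28, KRT34, KRT39, KRT81, KRT82 and KRT86.

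The series measured RNA of human colon cancer cell lines on Affymetrix arrays, with 4 groups of 2 arrays. The HT29 spheres, labelled as 1st spheres, were grown in DMEM-F12 with N2 supplement and 10 ng/ml each of bFGF and EGF, and their controls were parental HT29 cells grown in DMEM with 10% serum. The arrays labelled Snail came from a stable SW480 line said to express Snail, a transcriptional repressor known for its part in epithelial to mesenchymal transition, and their controls from a stable SW480 line that received the vector, both in high-glucose DMEM with 10% serum. Sphere form and sphere medium cannot be told apart in this design, and each SW480 condition is a single stable line. HT29 and SW480 are established colorectal adenocarcinoma lines. Nothing in the labels says that partner arrays were separate cultures, so each p-value measures the spread between arrays, which may be technical.

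All values are RMA values on the log2 scale. The array medians lay between 5.50 and 5.61 and the highest values between 14.2 and 14.4. The 2 arrays of a group correlated across genes at 0.991 to 0.995, and 200 genes were at least 2-fold apart between the parental arrays, against 10 to 19 in the other groups. No keratin was 2-fold apart between partner arrays except KRT3 in the vector line, with a gap of 1.03 on the log2 scale. A gene was called changed (higher or lower) at an adjusted p under 0.05 in limma, with all 8 arrays in 1 fit and Benjamini-Hochberg adjustment over the 19775 genes. An exact permutation test of 2 arrays against 2 cannot go below 0.333, so the tests below rest on the variance that limma shares across genes.

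SNAI1, the gene of Snail, was read before the keratins, to check the labels. Its level was 6.32 and 6.38 on the arrays labelled Snail, against 6.36 and 6.34 on the vector arrays. These values overlapped, and the difference was 0.00 ± 0.15 (SE, adjusted p = 0.99 in limma). The SNAI1 probe set thus did not show a higher level in the line labelled Snail. Whether the introduced construct holds the sequence that this probe set reads is not given in the sources used here. In HT29 the same probe set measured 6.93 and 7.21 in spheres, against 5.87 and 6.15 in parental cells, a log2 difference of 1.07 with an adjusted p of 0.00032 in limma. Of 8 colon epithelium markers, 8 lay above the highest array median in the spheres, 7 in parental HT29 (CDH17 did not), and 6 in each SW480 line (CDH17 and LGALS4 did not). By the same rule 5 to 7 of 11 markers of other cell types lay above that median, so passing it does not identify a cell type. None of 7 epidermal markers other than keratins, such as FLG and KRTDAP, lay above that median on both arrays of any group. CDSN did so on 1 sphere array (5.90 and 5.36, against 5.08 and 4.88 in parental cells). Of these 7, CDSN was called higher in spheres (0.65, adjusted p = 0.016, limma). LCE2B, at background, was called higher on the arrays labelled Snail (0.60, adjusted p = 0.049, limma). Of all genes 12.4% and 8.91% were called higher in these comparisons. The summed linear signal of those 7 was 178 to 207 in spheres, 162 to 176 in parental HT29, 185 to 207 on the arrays labelled Snail and 171 to 189 in the vector line.

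Keratins are the intermediate filament proteins of epithelial cells. A type I keratin pairs with a type II keratin, and the pairs build filaments that anchor at desmosomes and carry mechanical load. Which pairs a cell makes depends on its epithelium: colon epithelium is known for KRT8 with KRT18, KRT19 and KRT20, the basal layer of squamous epithelia for KRT5 with KRT14, and hair follicles for keratins of their own. Most type I genes lie together on chromosome 17 and the type II genes, with the type I gene KRT18, on chromosome 12.

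The promoter windows of 5 genes on which the results below turn are printed here as RefSeq gives them on GRCh38.p14, from 250 bases before to 50 bases after the annotated start, on the minus strand. They are KRT20 (chr17:40885193-40885492) and KRT10 (chr17:40822565-40822864) in the type I cluster, and KRT5 (chr12:52520345-52520644), KRT71 (chr12:52553096-52553395) and KRT74 (chr12:52573794-52574093), consecutive genes of the type II cluster. Capitals mark the E-box CAGGTG, a sequence Snail factors are known to bind, and the TATA box TATAAA, each searched on both strands.
KRT20: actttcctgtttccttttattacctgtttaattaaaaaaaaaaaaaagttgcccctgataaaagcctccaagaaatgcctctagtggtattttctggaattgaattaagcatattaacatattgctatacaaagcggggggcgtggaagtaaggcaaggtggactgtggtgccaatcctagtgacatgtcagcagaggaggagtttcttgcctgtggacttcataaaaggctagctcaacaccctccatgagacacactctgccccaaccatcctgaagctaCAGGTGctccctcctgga
KRT10: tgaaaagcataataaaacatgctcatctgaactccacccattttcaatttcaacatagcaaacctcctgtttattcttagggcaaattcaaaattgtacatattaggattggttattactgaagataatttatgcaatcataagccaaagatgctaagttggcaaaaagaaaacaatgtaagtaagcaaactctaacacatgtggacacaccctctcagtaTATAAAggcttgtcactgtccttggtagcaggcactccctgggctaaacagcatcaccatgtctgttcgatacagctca
KRT5: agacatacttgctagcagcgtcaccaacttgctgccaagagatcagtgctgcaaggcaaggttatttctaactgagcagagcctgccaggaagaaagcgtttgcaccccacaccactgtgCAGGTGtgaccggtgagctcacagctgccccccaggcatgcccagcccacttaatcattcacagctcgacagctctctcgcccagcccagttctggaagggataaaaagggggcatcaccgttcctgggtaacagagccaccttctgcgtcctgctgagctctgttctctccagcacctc
KRT71: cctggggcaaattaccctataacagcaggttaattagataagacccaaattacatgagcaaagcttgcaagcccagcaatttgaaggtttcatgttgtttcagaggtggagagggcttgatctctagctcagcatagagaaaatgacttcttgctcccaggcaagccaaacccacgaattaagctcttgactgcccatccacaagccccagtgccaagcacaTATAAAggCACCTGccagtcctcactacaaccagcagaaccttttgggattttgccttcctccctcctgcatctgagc
KRT74: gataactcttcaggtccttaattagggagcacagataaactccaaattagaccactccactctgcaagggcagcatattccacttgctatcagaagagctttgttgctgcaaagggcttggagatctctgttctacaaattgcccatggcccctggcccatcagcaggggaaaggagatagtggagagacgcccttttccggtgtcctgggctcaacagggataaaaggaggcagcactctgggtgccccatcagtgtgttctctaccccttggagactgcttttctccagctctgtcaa

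CAGGTG stood at +33 in KRT20, at -130 in KRT5 and, on the opposite strand, at -20 in KRT71, where the window shows its reverse complement. TATAAA stood at -29 in KRT10 and at -28 in KRT71, and the KRT74 window held neither motif. The 2 capital runs of KRT71 do not overlap. Of all 35116 promoter windows, 20.6% held CAGGTG and 11.5% held TATAAA. Of the 29 keratin genes that had both a value and a window, 6 held CAGGTG and 16 held TATAAA. Also searched were the AP-1 site TGANTCA (N is any base), the GC box GGGCGG and the CDX core CAATAAA. None of these matched in the printed windows. Of the same 29 genes 0, 6 and 5 held them, against 7.71%, 45% and 4% of all windows. A match of letters is a description of the window and says nothing of binding in these cells.

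Counted over the whole family, 17 of the 44 keratins (38.6%) changed in spheres against parental HT29, 15 higher and 2 lower. Over all 19775 genes 31.4% changed, 12.4% higher and 19% lower. The median keratin difference was 0.30, against 0.04 over all genes. Past the threshold and at least 2-fold, 5 keratins were higher (KRT23, KRT16, KRT20, KRT15 and KRT12) and none was lower, where 3.16% of all genes were higher and 7.08% lower. The share of keratins called was near the background share, with more higher than lower calls among keratins and more lower than higher calls among all genes. Without sphere array 1 the number of keratin calls was 8, and without parental array 2 it was 10. The calls over all genes in those fits were 4251 and 5719, against 6200 with all arrays.

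On the arrays labelled Snail against vector, 7 of 44 keratins (15.9%) changed, 5 higher and 2 lower, where 16.2% of all genes changed, 8.91% higher and 7.34% lower. The share was that of the background. The median keratin difference was 0.07, against 0.01 over all genes. At least 2-fold, KRT71 alone was higher and no keratin was lower, where 1.92% of all genes were higher and 1.4% lower. Leaving out 1 array gave 2 calls without vector array 1 or Snail-labelled array 1, and 3 without vector array 2 or Snail-labelled array 2. The calls over all genes in those fits were 1447 to 1602, against 3213 with all arrays. KRT5 and KRT71 passed in each of these fits.

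Between the vector line and parental HT29, 18 of 44 keratins (40.9%) differed, 14 higher and 4 lower, where 46.1% of all genes did, 22.6% higher and 23.5% lower. The median keratin difference was 0.27, against 0.07 over all genes. At least 2-fold, 7 keratins were higher (KRT5, KRT23, KRT74, KRT71, KRT13, KRT15 and KRT14) and 1 was lower (KRT20), where 7.32% of all genes were higher and 11.6% lower. This comparison uses the same control arrays as the within-line ones. It holds the difference between the cell lines together with those of carrying a vector and of the stated medium (DMEM against high-glucose DMEM).

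**Figure D1:**
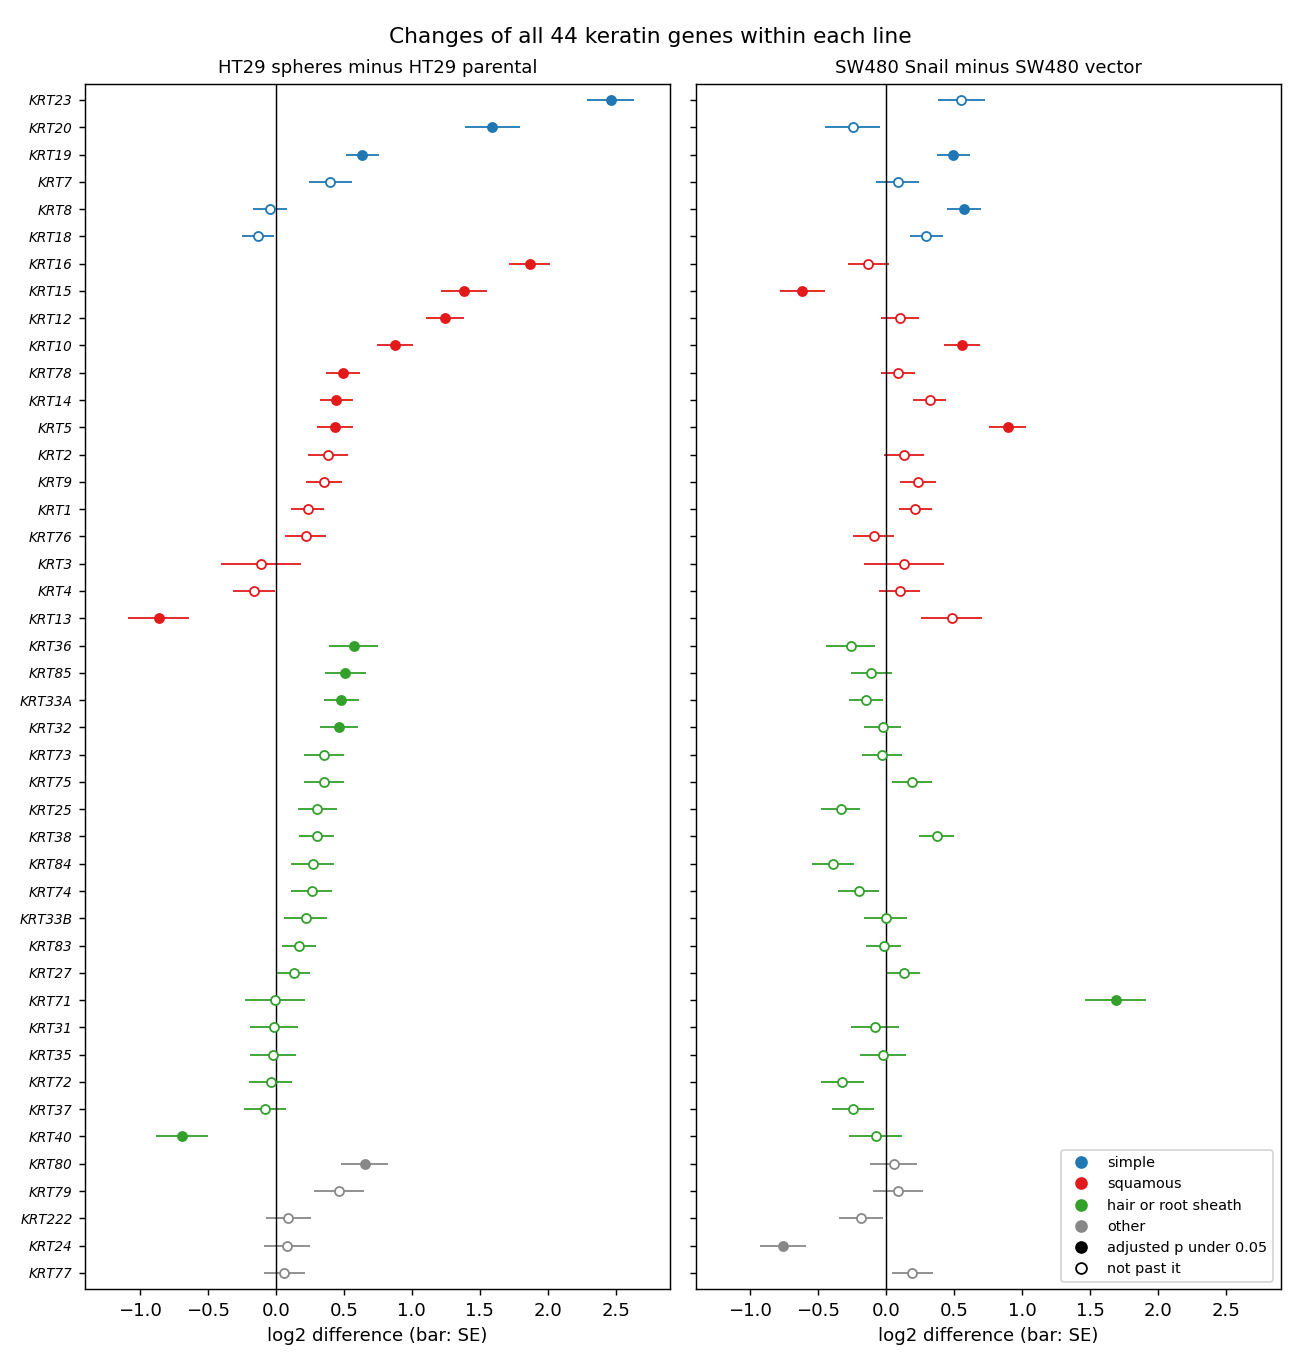
Log2 differences with standard errors for the 44 keratins, coloured as simple, squamous, hair or root sheath, and other, for HT29 spheres minus parental cells (left) and the SW480 arrays labelled Snail minus vector (right); filled points passed the adjusted p threshold of 0.05. Most filled points of the sphere panel lie right of 0, up to 2.46 for KRT23, and the largest in the other panel is KRT71 at 1.69.

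**Figure D2:**
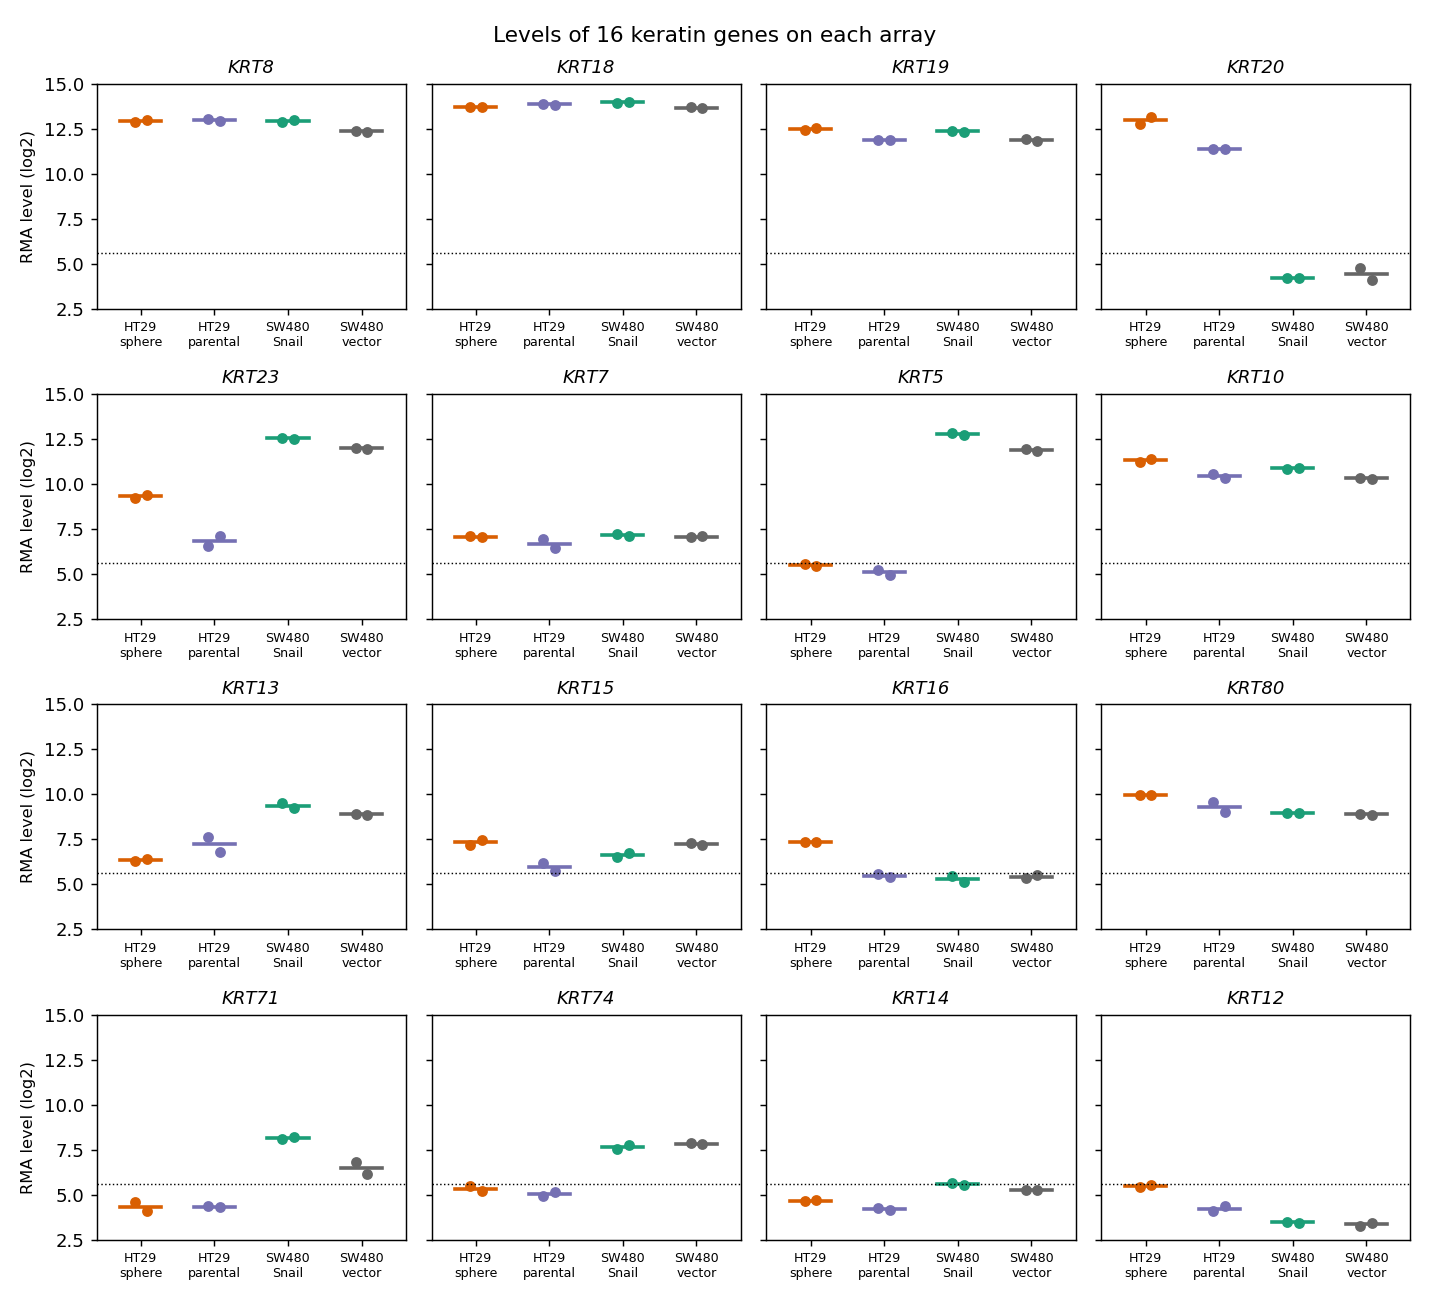
Log2 RMA values of 16 keratins, with 1 point per array, a bar at each group's mean and the 4 groups set apart by colour; the dotted line is the highest array median, 5.61. KRT8, KRT18 and KRT19 are high in all 4 groups, KRT20 in the HT29 groups alone, and KRT5 in the SW480 groups alone.

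Among the simple keratins, the filament pair of the colon was close to the top of the measured range in all groups. KRT18, the type I partner of KRT8, measured 13.70 and 13.73 in HT29 spheres, against 13.86 and 13.82 in parental cells. It measured 13.94 and 13.99 on the arrays labelled Snail, against 13.71 and 13.63 on the vector arrays. Sphere values were below parental ones and Snail-labelled values above vector ones without overlap, yet neither difference passed the test (-0.13 ± 0.12, adjusted p = 0.46, and 0.30 ± 0.12, adjusted p = 0.12, limma). KRT8, its type II partner, measured 12.88 and 13.00 in spheres, against 13.05 and 12.91 in parental cells, and these overlapped (-0.04 ± 0.12, adjusted p = 0.83). In SW480 it measured 12.89 and 12.95 on the arrays labelled Snail, against 12.37 and 12.33 on the vector arrays. Both Snail-labelled arrays were higher, by 0.57 ± 0.12 or 1.49-fold (adjusted p = 0.011). That call was lost when any 1 of the 4 SW480 arrays was left out. KRT8 and KRT18 are read by probe sets marked as able to match other transcripts, and both genes are known for many processed pseudogenes, so signal of related copies cannot be set apart here. SNAI1 itself did not differ between these lines, so this and the following directions in SW480 are those of the arrays as labelled.

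KRT19, a type I simple keratin that lacks most of the usual tail domain, rose in both within-line comparisons. It measured 12.45 and 12.54 in spheres, against 11.86 and 11.85 in parental cells, and 12.35 and 12.33 on the arrays labelled Snail, against 11.91 and 11.79 on the vector arrays. In each pair the control arrays were lower without overlap, and the 2 controls were at nearly the same level. The increase was 0.64 ± 0.12 (1.56-fold, adjusted p = 0.0023, limma) in spheres and 0.49 ± 0.12 (adjusted p = 0.019) on the arrays labelled Snail. In bulk RNA such as this, more cells of a kind and more RNA per cell cannot be told apart. A second probe set, at 4.58 to 5.48 on all arrays, stayed at background. Averaged with it, the increases were 0.28 (adjusted p = 0.19) and 0.41 (adjusted p = 0.097), and the SW480 call was also lost without any 1 SW480 array.

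KRT20, a type I keratin of differentiated cells of the gut lining, separated the lines most among the simple keratins. It measured 12.76 and 13.17 in HT29 spheres, against 11.38 and 11.36 in parental cells, and 4.18 and 4.18 on the arrays labelled Snail, against 4.74 and 4.11 on the vector arrays. The HT29 arrays were all far above the array medians and the SW480 arrays all below them. Spheres were above parental cells by 1.59 ± 0.20 (3.02-fold, adjusted p = 0.00019, limma). The SW480 arrays overlapped (-0.25 ± 0.20, adjusted p = 0.48), at a level where this probe set gives little beyond background. The vector line was below parental HT29, with a log2 difference of -6.95 ± 0.20 (adjusted p = 2.5e-09).

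KRT23, a type I keratin known from colon cancers, ran the other way between the lines although RefSeq places it next to KRT20 with no gene between. It measured 9.23 and 9.39 in spheres, against 6.56 and 7.13 in parental HT29, and 12.56 and 12.53 on the arrays labelled Snail, against 12.02 and 11.96 on the vector arrays. Every SW480 array was above every HT29 array, and spheres and the arrays labelled Snail were each above their controls. The increase in spheres was 2.46 ± 0.17, or 5.51-fold (adjusted p = 5.2e-06, limma), the largest among the 44 keratins in that comparison. In the arrays labelled Snail the difference of 0.55 ± 0.17 missed the threshold (adjusted p = 0.058). Between the vector line and parental HT29 the difference was 5.15 ± 0.17, or 35.4-fold (adjusted p = 7.2e-09).

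KRT7, a type II keratin of ducts and glands, depended on the probe set. The brighter set measured 7.11 and 7.05 in spheres, against 6.92 and 6.44 in parental cells, and 7.20 and 7.13 on the arrays labelled Snail, against 7.07 and 7.09 on the vector arrays. Neither difference passed the test (0.40, adjusted p = 0.082, and 0.09, adjusted p = 0.78, limma). A dimmer set measured 5.94 and 6.18 in spheres, against 7.24 and 6.32 in parental cells, and 5.74 and 5.75 on the arrays labelled Snail, against 6.91 and 6.74 on the vector arrays. By that set spheres and the arrays labelled Snail were both lower without overlap, with differences of -0.72 (adjusted p = 0.046) and -1.08 (adjusted p = 0.014). No direction is therefore given for KRT7.

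**Figure D3:**
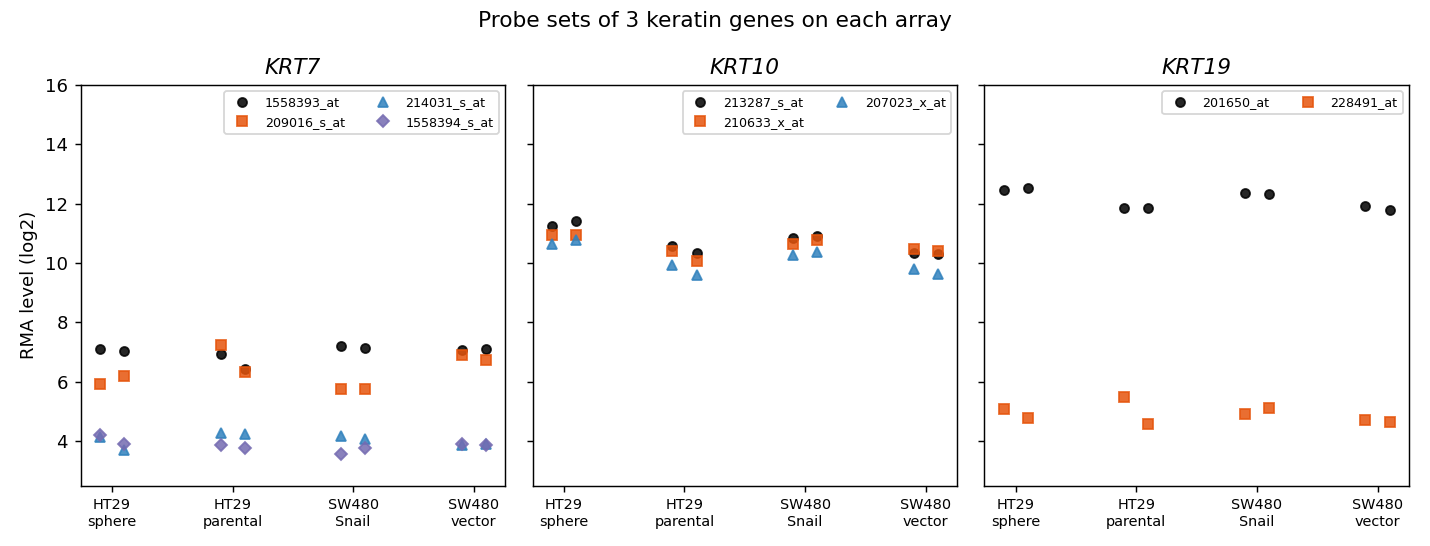
Log2 RMA values of every probe set of KRT7, KRT10 and KRT19 on each array, 2 points per group, with a symbol for each probe set. The brightest set of KRT7 changes little while the next one is lower in spheres and on the arrays labelled Snail, the sets of KRT10 run together, and the second set of KRT19 stays at 4.58 to 5.48.

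Among the squamous keratins, KRT5, the type II keratin of basal squamous cells, was the gene most unlike between the lines. It measured 5.58 and 5.47 in spheres, against 5.22 and 4.97 in parental HT29, and 12.86 and 12.73 on the arrays labelled Snail, against 11.94 and 11.86 on the vector arrays. Every HT29 array was below the highest array median, and every SW480 array was far above it. The vector line exceeded parental HT29 by 6.81 ± 0.14, or 112-fold (adjusted p = 4.1e-10, limma), a fold set by the background level of the HT29 arrays. Within SW480 the arrays labelled Snail were higher by a further 0.89 ± 0.14, or 1.86-fold (adjusted p = 0.0019), and this call held when any 1 array was left out. The sphere difference of 0.44 ± 0.14 passed the test (adjusted p = 0.032), at a level around background, and was lost without parental array 2 or without either sphere array.

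KRT14, the usual type I partner of KRT5 in basal cells, showed no such level in SW480. It measured 4.63 and 4.69 in spheres, against 4.29 and 4.14 in parental cells, and 5.63 and 5.54 on the arrays labelled Snail, against 5.28 and 5.26 on the vector arrays. Only 1 of these 8 values lay above the highest array median of 5.61, so KRT14 stood at about background while KRT5 was high in the same arrays. The vector line exceeded parental HT29 by 1.05 ± 0.12 (adjusted p = 4.8e-05, limma) and spheres exceeded parental cells by 0.45 ± 0.12 (adjusted p = 0.018). The sphere call was lost without parental array 2 or either sphere array, and with each line fitted alone. The difference of 0.32 ± 0.12 on the arrays labelled Snail did not pass (adjusted p = 0.11).

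KRT16, a type I keratin known from wounded and stressed epidermis, changed in HT29. It measured 7.35 and 7.34 in spheres, against 5.56 and 5.39 in parental cells, and 5.49 and 5.11 on the arrays labelled Snail, against 5.36 and 5.51 on the vector arrays. Only the spheres were above the highest array median. The increase of 1.87 ± 0.15, or 3.65-fold, had an adjusted p of 1.1e-05 in limma, with a fold set by the background level of the parental arrays, and the SW480 arrays overlapped (-0.13 ± 0.15, adjusted p = 0.63). Its usual type II partners are KRT6A and KRT6B, which were not analysed here.

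KRT15, a type I keratin of basal cells and of the stem cell region of the hair follicle, moved in opposite directions in the 2 within-line comparisons. It measured 7.21 and 7.48 in spheres, against 6.17 and 5.75 in parental cells, and 6.54 and 6.73 on the arrays labelled Snail, against 7.30 and 7.19 on the vector arrays. Spheres were above their control and the arrays labelled Snail below theirs, both without overlap. The increase in spheres was 1.38 ± 0.17, or 2.61-fold (adjusted p = 0.00014, limma), and the difference in SW480 was -0.62 ± 0.17 (adjusted p = 0.032). Leaving out any 1 SW480 array ended the second call.

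KRT13, a type I keratin of the upper layers of moist squamous linings and the gene next to KRT15, had the reverse pattern of signs. It measured 6.31 and 6.41 in spheres, against 7.63 and 6.82 in parental cells, and 9.50 and 9.24 on the arrays labelled Snail, against 8.91 and 8.86 on the vector arrays. Spheres were lower without overlap, though the parental arrays were 0.81 apart, the widest gap of any keratin in that group. KRT13 fell by 0.86 ± 0.22 in spheres (adjusted p = 0.014, limma), a call lost without parental array 1 or either sphere array. The difference of 0.48 ± 0.22 on the arrays labelled Snail did not pass (adjusted p = 0.19), and the vector line was above parental HT29 by 1.66 ± 0.22 (adjusted p = 0.00014).

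KRT10, a type I keratin made as epidermal cells leave the basal layer, measured 11.25 and 11.42 in spheres, against 10.57 and 10.33 in parental cells, and 10.85 and 10.90 on the arrays labelled Snail, against 10.33 and 10.31 on the vector arrays. All 8 arrays were far above the medians, and spheres and the arrays labelled Snail exceeded their controls without overlap. The increases were 0.88 ± 0.13 in spheres (adjusted p = 0.00056, limma) and 0.56 ± 0.13 on the arrays labelled Snail (adjusted p = 0.018). A second probe set of KRT10 gave 0.27 in SW480, which did not pass (adjusted p = 0.23), and the SW480 call was also lost without any 1 SW480 array. KRT1, its usual type II partner, lay below the array medians on all 8 arrays (4.73 to 5.24) and passed in no comparison.

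KRT12, a type I keratin of the cornea, measured 5.42 and 5.54 in spheres, against 4.09 and 4.37 in parental cells, and 3.49 and 3.44 on the arrays labelled Snail, against 3.28 and 3.45 on the vector arrays. No value was above the highest array median, yet the spheres stood clear of the other arrays. The sphere difference was 1.25 ± 0.14 (adjusted p = 8.3e-05, limma). KRT78 also passed in spheres (0.49, adjusted p = 0.013) and KRT2 between the lines (0.54, adjusted p = 0.011), both at background level and both lost without parental array 1. Without sphere array 1 KRT78 was also lost, and without vector array 2 KRT2 was. KRT80, a type II keratin of many epithelia that was counted with the other keratins, measured 9.97 and 9.95 in spheres, against 9.60 and 9.02 in parental cells, and 8.95 and 8.94 on the arrays labelled Snail, against 8.91 and 8.88 on the vector arrays. It was higher in spheres by 0.65 ± 0.17 (adjusted p = 0.015), a call lost without parental array 2 or either sphere array, and differed by 0.05 ± 0.17 in SW480 (adjusted p = 0.88).

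Of the hair and root sheath keratins, KRT71 and KRT74, type II keratins of the inner root sheath, were above the array medians in SW480. RefSeq places both directly after KRT5, with no gene between the 3, and KRT72 between KRT74 and KRT73. KRT71 measured 4.58 and 4.08 in spheres, against 4.35 and 4.32 in parental HT29, and 8.11 and 8.20 on the arrays labelled Snail, against 6.81 and 6.13 on the vector arrays. The HT29 arrays overlapped at background, and within SW480 the arrays labelled Snail were higher without overlap. The SW480 increase was 1.69 ± 0.22, or 3.22-fold (adjusted p = 0.00086, limma), the largest among the keratins in that comparison and one that held without any 1 array. The vector line exceeded parental HT29 by 2.13 ± 0.22 (adjusted p = 2.1e-05).

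KRT74 measured 5.47 and 5.19 in spheres, against 4.95 and 5.18 in parental HT29, and 7.52 and 7.77 on the arrays labelled Snail, against 7.85 and 7.83 on the vector arrays. The vector line exceeded parental HT29 by 2.78 ± 0.15, or 6.86-fold (adjusted p = 1.7e-07, limma), a fold set by the background level of the HT29 arrays. A second probe set of KRT74 gave a difference of 1.28. Within SW480 it was not higher on the arrays labelled Snail (-0.20 ± 0.15, adjusted p = 0.43). Thus the 3 neighbours shared the difference between the lines, and KRT5 and KRT71 alone of the 3 rose on the arrays labelled Snail. KRT72, the next gene, did not pass between the lines (0.40, adjusted p = 0.061) and KRT73 passed narrowly (0.41, adjusted p = 0.042), a call lost in 10 alternative settings.

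**Figure D4:**
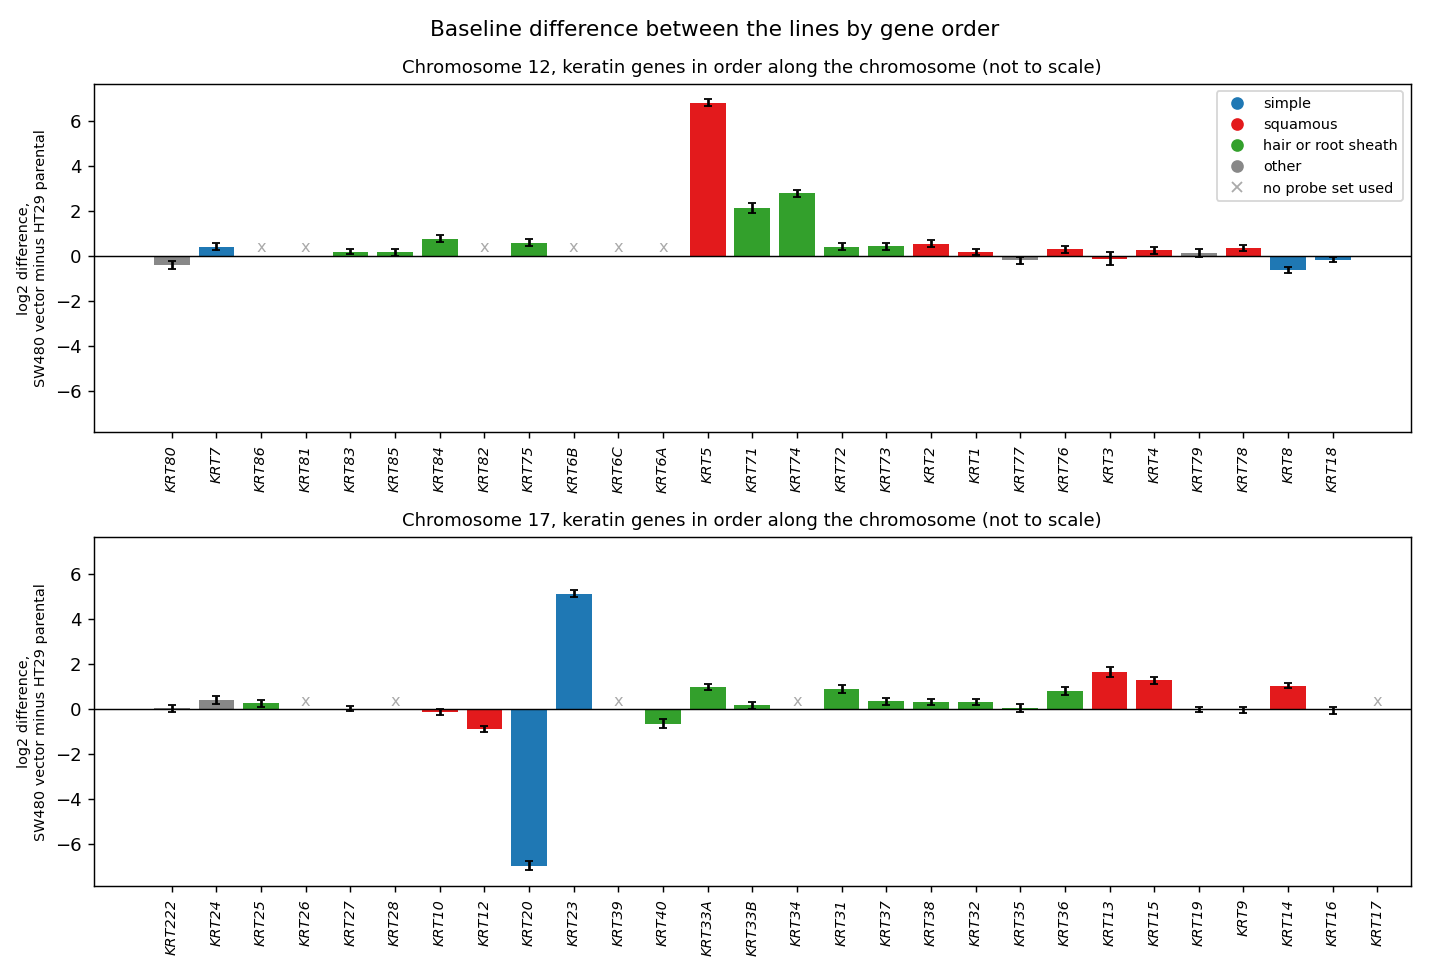
Log2 difference of the SW480 vector line minus parental HT29 for each keratin, as bars with standard errors, in the order of the genes along chromosomes 12 and 17 (not to scale); a cross marks a keratin with no probe set used. KRT5, KRT71 and KRT74 stand side by side with positive bars, and KRT20 and KRT23 stand side by side with opposite signs.

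The other hair keratins that passed were at or near background. In spheres these were KRT32 (0.47, adjusted p = 0.027), KRT33A (0.48, adjusted p = 0.016), KRT36 (0.57, adjusted p = 0.036) and KRT85 (0.51, adjusted p = 0.025), all higher, and KRT40, which fell by 0.69 (adjusted p = 0.02, limma). Each of these 5 calls was lost without 1 or more single arrays, and KRT36 passed in only 8 of its 15 alternative settings. In the vector line against parental HT29 they were KRT31 (0.92), KRT33A (0.99), KRT36 (0.82), KRT75 (0.58) and KRT84 (0.74), all higher, and KRT40, which fell by 0.63. There the KRT75 call was lost without vector array 2, and the KRT40 call without parental array 1 or vector array 2. On the arrays labelled Snail KRT24, a type I keratin counted with the others, fell by 0.76 (adjusted p = 0.014), a call lost without vector array 1 or Snail-labelled array 1. In all, 24 of the 44 keratins were never above the highest array median on both arrays of a group, with array values of 3.28 to 5.76. They held 6 of the 17 sphere calls, 1 of the 7 calls on the arrays labelled Snail and 8 of the 18 calls between the lines. The share of all genes that passed in none of the 3 pairwise comparisons is not given here. Among the keratins 18 passed in none of them, with differences of -0.34 to 0.47. Besides KRT7 and KRT18 these were the squamous KRT1, KRT3, KRT4, KRT9 and KRT76, the hair and root sheath KRT25, KRT27, KRT33B, KRT35, KRT37, KRT38, KRT72 and KRT83, and KRT77, KRT79 and KRT222.

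Simple and squamous keratins were set side by side. Of all genes, 12.4% rose and 19% fell in spheres, and 8.91% rose and 7.34% fell on the arrays labelled Snail. Between the lines 22.6% were higher and 23.5% lower in the vector line. The medians over all genes were 0.04, 0.01 and 0.07 in these 3 comparisons. In spheres, of 6 simple keratins, 3 rose (KRT19, KRT20 and KRT23) and none fell, with a median difference of 0.52, which the mean of probe sets lowered to 0.12. Of 14 squamous keratins, 7 rose (KRT5, KRT10, KRT12, KRT14, KRT15, KRT16 and KRT78) and 1 fell (KRT13), with a median of 0.41. On the arrays labelled Snail, 2 of 6 simple keratins rose (KRT8 and KRT19, median 0.40), and of the squamous ones 2 rose (KRT5 and KRT10) and 1 fell (KRT15), with a median of 0.13. Between the lines, 1 simple keratin was higher in the vector line (KRT23) and 2 were lower (KRT8, with a difference of -0.63, and KRT20), with a median of -0.09. Of the squamous ones 5 were higher (KRT2, KRT5, KRT13, KRT14 and KRT15) and 1 was lower (KRT12, with a difference of -0.87), with a median of 0.27. With 6 and 14 members these medians are descriptions, and the medians of simple and squamous keratins were not tested against each other.

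Spheres and the arrays labelled Snail share no arrays, so their changes can be set against each other gene by gene. KRT5, KRT10 and KRT19 rose in both, KRT15 rose in spheres and fell on the arrays labelled Snail, and 24 keratins passed in neither. The shares of all genes that passed in both or in neither are not given here, so these counts only describe the keratins. The difference of the 2 changes was tested in the same fit, and 13 of 44 keratins passed (29.5%), against 27.5% of all genes, 16.9% with a positive and 10.6% with a negative difference. For 3 keratins (KRT8, KRT13 and KRT71) the change on the arrays labelled Snail was the more positive, and for 10, led by KRT15, KRT16, KRT23 and KRT20, the sphere change was. KRT5, KRT10 and KRT19 did not pass this test (0.46 with adjusted p = 0.11, -0.32 with adjusted p = 0.24, and -0.14 with adjusted p = 0.59), which does not show that their changes were equal.

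The desmosome and plakin genes, whose products tie keratin filaments to cell junctions, included 9 of 18 that rose and 2 that fell in spheres (median 0.38), and 5 that rose and none that fell on the arrays labelled Snail (median 0.15). Of all genes 12.4% rose and 19% fell in spheres, and 8.91% rose and 7.34% fell on the arrays labelled Snail. In spheres the desmosomal cadherins DSC2 (1.13 ± 0.12, adjusted p = 7.5e-05, limma) and DSG3 (0.95 ± 0.14, adjusted p = 0.00044) were higher, and PKP4, a plakophilin relative, fell by 0.85 (adjusted p = 0.00055). DSG3 lay around background, at 5.48 and 5.79 in spheres against 4.73 and 4.63 in parental cells. On the arrays labelled Snail the keratin linker PPL (0.99 ± 0.13, adjusted p = 0.00085), the plakin EPPK1 (0.83, adjusted p = 0.0083) and the junction protein JUP (0.78, adjusted p = 0.0074) were higher. The JUP and EPPK1 calls were lost without vector array 1 or Snail-labelled array 1. With the mean of probe sets EPPK1 gave 0.29 (adjusted p = 0.18), and without cross-matching sets 0.41 (adjusted p = 0.11).

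Of 15 other intermediate filament genes, 1 rose and 3 fell in spheres (median -0.03), a called share of 26.7% where that of all genes was 31.4%. The nuclear lamins LMNB1 fell by 2.64 ± 0.22 (adjusted p = 1.4e-05, limma) and LMNB2 fell by 1.85 ± 0.18 (adjusted p = 3.6e-05). The lens filament gene BFSP1 fell by 0.56 (adjusted p = 0.012), a call lost without parental array 1 or either sphere array. On the arrays labelled Snail NES, nestin, was higher by 1.17 ± 0.20 (adjusted p = 0.0037). VIM, vimentin, the filament protein of mesenchymal cells, measured 12.23 and 12.20 on the arrays labelled Snail, against 12.88 and 12.81 on the vector arrays. Both Snail-labelled arrays were lower, and VIM fell by 0.62 ± 0.14 (adjusted p = 0.013), in the line where SNAI1 did not differ. The VIM call was lost without any 1 of the 4 SW480 arrays. In HT29 VIM measured 6.47 and 6.22 in spheres, against 6.15 and 5.91 in parental cells.

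Of 18 measured transcription factors known to act on keratin genes, 7 rose and 3 fell in spheres, and 5 rose and none fell on the arrays labelled Snail. The called shares were 55.6% and 27.8%, where those of all genes were 31.4% and 16.2%. In spheres KLF4 (1.21 ± 0.13, adjusted p = 6e-05) and ZNF750 (1.70 ± 0.18, adjusted p = 5.2e-05), factors of epidermal differentiation, were higher, the second at levels below the array medians. OVOL2, an epithelial repressor, fell by 2.29 ± 0.13 (adjusted p = 1.2e-06, limma), but with cross-matching probe sets left out the remaining one gave -0.18 (adjusted p = 0.45). On the arrays labelled Snail TFAP2A (1.15 ± 0.12, adjusted p = 0.00031), GRHL1 (0.64, adjusted p = 0.014) and GLI2 (0.57, adjusted p = 0.019) were higher, and averaging the TFAP2A probe sets gave 0.25 (adjusted p = 0.18). The GLI2 call was lost without any 1 SW480 array, the GRHL1 call without vector array 1, vector array 2 or Snail-labelled array 1, and both when probe sets were averaged. No relation between these factors and the keratins was tested.

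Of 11 measured markers of immune, endothelial, stromal, pigment and blood cells, 7 lay above the highest array median on both sphere arrays and 5 on both parental HT29 arrays. Their summed linear signals were 967 to 1105 and 556 to 574. By the same rule 6 lay above it on the arrays labelled Snail and 5 in the vector line, with overlapping sums of 699 to 759 and 746 to 790. In spheres 4 of the 11 were called, all higher, where 12.4% of all genes were. LUM, a matrix proteoglycan gene, differed most among them, at 8.45 and 8.41 in spheres against 4.65 and 4.65 in parental cells. Of the same 11, 1 was called on the arrays labelled Snail (PECAM1, lower), where 16.2% of all genes were. The colon epithelium markers summed to 17798 to 18573 in spheres and 15887 to 18038 in parental HT29, and to 5408 to 5687 on the arrays labelled Snail and 4341 to 4451 in the vector line. Their part in the keratin differences was not tested.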

How the data were processed

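The authors deposited log2 values, 1 per probe set and array. The submitters' processing notes name RMA, which corrects background, normalizes arrays by quantiles and summarises the probes of a set. For the RMA version and probe definitions, nothing was given in the sources used here. Values of probe sets cannot be compared as amounts between genes, and the number of arrays limits the precision.

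Probe sets were named from GEO's platform annotation: 41091 named 1 gene, 1801 several and 11721 none, with 62 controls left out. Of these, 41037 matched the RefSeq gene table of GRCh38.p14 by Entrez ID and 0 symbols changed. That table gave names, chromosomes and neighbours only. Each gene was read by its probe set of highest mean over the 8 arrays. For 8 keratins this was a set marked as able to cross-match (_x_at or _s_at), among them KRT8, KRT18, KRT10 and KRT13.

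A model of 4 group means was fitted with limma 3.58.1 in R 4.3.3 (4 residual and 6.10 prior degrees of freedom, empirical Bayes), with two-sided tests and Benjamini-Hochberg adjustment over 19775 genes. Adjusted p-values in the text come from this fit unless another setting is named. The fit was tested on simulated data.

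Values in every array are given for the main simple and squamous keratins, KRT80, KRT10 and others past the threshold with at least a 2-fold change and no overlap. Up to 3 partner genes per list and within-line comparison are named by lowest adjusted p. The members and lists were chosen with earlier results of these data known. The alternatives were the mean of probe sets, no cross-matching sets, no dim genes, quantile normalization and array weights. Further ones were an intensity trend with robust fitting, each line alone, a replicate block and leaving out each array. For KRT7 and KRT10 the other probe sets were also used.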

Additional observations from a re-analysis of the deposited data

Results flagged for a closer look

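For 13 keratins the change on the arrays labelled Snail against the SW480 vector line and the change in HT29 spheres against parental cells differed by a test of the difference itself in limma (adjusted p under 0.05 over all genes). The values below are the first change minus the second, on the log2 scale. The arrays labelled Snail had the more positive change for KRT71 (1.69), KRT13 (1.34) and KRT8 (0.61). Spheres had the more positive change for KRT15 (-2.00), KRT16 (-2.00), KRT23 (-1.91) and KRT20 (-1.84). The same held at or near background in all groups for KRT12 (-1.15), KRT24 (-0.84), KRT36 (-0.83), KRT84 (-0.66), KRT25 (-0.64) and KRT33A (-0.63). KRT12, KRT16 and KRT20 were at background on all SW480 arrays, so there a lower level may have been missed. Likewise KRT71 was at background on all HT29 arrays (4.08 to 4.58), so a fall in spheres may have been missed. Falls below the array medians could still be called, as for KRT12 in the vector line against parental HT29 (-0.87, adjusted p = 0.00045, limma). The difference was lost in 11 of 14 alternative settings for KRT84, in 8 of 14 for KRT25, in 7 of 14 for KRT36, and in 5 each for KRT8, KRT24 and KRT33A. KRT25 and KRT84 passed in neither within-line comparison alone. The cell line, the treatment and the medium differ together between these comparisons and cannot be told apart.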

How the results depend on the processing

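Of 72 calls on named genes, 38 held under every alternative that gave a value, 34 were lost under 1 or more, and 0 changed sign. Of 64 values of the counts and medians under settings other than leaving out an array, 40 stayed within 1.5 times the main count or within 1 SD between arrays of the main median. The main counts, of 44 keratins, were 17 in spheres, 18 between the lines and 13 for the difference of changes. Leaving out the dimmest 40% of genes gave 8, 9 and 6, of only 13 keratins left. Calls over all genes left were then 6014, 7712 and 5323, against 6200, 9116 and 5446 in the main fit. Counting only the 20 keratins above the highest array median, an alternative chosen after seeing the data, gave 11, 10 and 7. These lower counts come from fewer keratins and are not lower shares. Without cross-matching probe sets the last count was 8 of 36 keratins, with 4151 calls over all genes. The simple median was 0.52 in spheres, 0.40 on the arrays labelled Snail and -0.09 between the lines. With the mean of probe sets it became 0.12 in spheres and -0.18 between the lines. Without cross-matching sets it became 0.64, 0.086 and -0.0097, and without KRT23 0.40, 0.30 and -0.17. The squamous median was 0.41, 0.13 and 0.27. It became 0.66, 0.52 and 1.48 both without dim genes and over the 4 members whose mean was above the median mean of all genes, 0.37 in spheres with the mean of probe sets, and 0.36 in spheres and 0.16 between the lines after quantile normalization. The cause was not tested except that the filters leave fewer members. Leaving out 1 array in turn gave 8 to 17 keratins in spheres, 2 to 9 on the arrays labelled Snail, 16 to 20 between the lines and 8 to 16 for the difference. The simple median then ranged over 0.40 to 0.64, 0.34 to 0.45 and -0.14 to -0.041, and the squamous one over 0.36 to 0.46, 0.088 to 0.24 and 0.19 to 0.32. A second probe set turned the KRT7 difference to -0.72 in spheres and -1.08 on the arrays labelled Snail. The replicate block gave 18, 7, 19 and 12 of 44 keratins, with 6081, 3065, 8970 and 5281 calls over all genes. Same-numbered arrays did not deviate together across genes (correlations of -0.06 to 0.06). The labels do not say whether the numbers pair the arrays, and a pairing with a small common effect would look the same. Quantile normalization moved the median of all genes by less than 0.1.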
